A study of Mus musculus with 6 samples.

Results

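The genes described here encode the subunits of the mitochondrial respiratory chain and of ATP synthase that are carried in the nuclear genome of the mouse. They were taken by symbol from the deposited count table, as every row whose symbol starts with Ndufa, Ndufb, Ndufc, Ndufs or Ndufv and a digit, with Uqcr, Atp5 or Cox and a digit from 4 to 8, together with Ndufab1, Sdha, Sdhb, Sdhc, Sdhd and Cyc1. Ndufaf assembly factors and pseudogenes were left out. The rule used no measured value and found 86 of 23845 genes, of which 80 passed the filter on low counts that left 13935 genes for testing. By complex, 38 members belonged by symbol to complex I, 4 to complex II, 9 to complex III, 18 to complex IV and 17 to complex V. The subunits encoded by mitochondrial DNA were not analysed here.

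RNA of intestinal epithelial cells was sequenced in 6 libraries, with 2 libraries in each of 3 groups. EGFP cells came from mice of genotype Neurog3+/-EGFP on C57BL6, with 1 Neurog3 allele and a green fluorescent reporter. EYFP cells came from mice of genotype Neurog3+/+EYFP on a mixed C57BL6 and CD1 background, with 2 Neurog3 alleles and a yellow fluorescent reporter. Wild-type epithelium came from C57BL6 mice, and its library titles point to duodenum. Neurog3 is the transcription factor that starts the enteroendocrine lineage of the gut, and the study compared cells with 1 and 2 copies of it. The design text says that Neurog3-expressing cells were isolated by fluorescence-activated sorting. No source used here gives the age or number of the mice, the gates, the gut segment of the reporter cells or any sorting of wild-type cells. Nor do the labels say that libraries of a group came from separate animals, so every p-value measures only the spread between these libraries. Strain goes with the EYFP group, so strain and group cannot be told apart in any comparison with EYFP cells.

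Oxidative phosphorylation takes electrons from NADH at complex I and from succinate at complex II, passes them through ubiquinone, complex III and cytochrome c to complex IV, and there reduces oxygen to water. Complexes I, III and IV pump protons across the inner mitochondrial membrane, and ATP synthase, or complex V, uses their return to make ATP. In the small intestine, absorptive enterocytes of the villus hold many mitochondria, and proliferating crypt cells are known to lean more on glycolysis. Nuclear respiratory factor 1 (NRF1), the ETS family factor GABP and the estrogen-related receptors, with their PGC-1 coactivators, are known activators of respiratory chain genes.

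The stretch of DNA before the gene start is shown for 6 members, because 4 of them fell both in EGFP cells against wild type and in EYFP against EGFP cells and hold motifs of these factors, and because Cox7a1 and Cox7a2l were the members that departed furthest from the others. Each run is the 250 bases before the start from RefSeq's promoter table of GRCm38.p6, the build also called mm10, read 5′ to 3′ on the strand of the gene. Capitals mark matches on either strand to the NRF1 core GCGCANGCG or the ETS core CCGGAAG, which reads CTTCCGG on the opposite strand. Where an NRF1 match on one strand overlaps a match on the other, as in Cox6a1 and Atp5k, the joined run is longer by a base and is counted once below. No NRF1 match shown overlaps an ETS match.
Sdha, chr13:74350241-74350490, minus strand: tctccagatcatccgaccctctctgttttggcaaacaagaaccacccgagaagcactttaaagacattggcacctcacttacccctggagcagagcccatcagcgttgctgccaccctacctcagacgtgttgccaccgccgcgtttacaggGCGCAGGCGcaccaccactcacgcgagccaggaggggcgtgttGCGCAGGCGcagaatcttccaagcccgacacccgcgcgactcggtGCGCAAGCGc
Sdhd, chr9:50603850-50604099, minus strand: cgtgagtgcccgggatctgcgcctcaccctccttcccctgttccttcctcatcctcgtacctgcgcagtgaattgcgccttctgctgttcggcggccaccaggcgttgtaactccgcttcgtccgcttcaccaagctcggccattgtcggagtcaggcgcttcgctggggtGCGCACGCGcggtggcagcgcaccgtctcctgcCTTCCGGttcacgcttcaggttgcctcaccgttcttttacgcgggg
Cox6a1, chr5:115348959-115349208, minus strand: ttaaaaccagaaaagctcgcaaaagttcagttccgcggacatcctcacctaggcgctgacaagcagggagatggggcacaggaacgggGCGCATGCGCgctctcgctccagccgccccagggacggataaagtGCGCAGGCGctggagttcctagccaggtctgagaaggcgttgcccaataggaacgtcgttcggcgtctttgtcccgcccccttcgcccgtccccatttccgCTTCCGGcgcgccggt
Atp5k, chr5:108434400-108434649, minus strand: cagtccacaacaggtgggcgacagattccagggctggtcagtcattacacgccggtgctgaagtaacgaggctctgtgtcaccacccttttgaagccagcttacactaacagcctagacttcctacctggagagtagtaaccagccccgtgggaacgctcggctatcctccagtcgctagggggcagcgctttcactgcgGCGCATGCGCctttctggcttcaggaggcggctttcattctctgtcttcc
Cox7a1, chr7:30183921-30184170, plus strand: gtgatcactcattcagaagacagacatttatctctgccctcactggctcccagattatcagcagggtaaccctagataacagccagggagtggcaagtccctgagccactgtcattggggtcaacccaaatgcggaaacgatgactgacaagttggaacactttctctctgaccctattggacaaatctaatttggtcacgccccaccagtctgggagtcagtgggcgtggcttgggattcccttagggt
Cox7a2l, chr17:83514334-83514583, minus strand: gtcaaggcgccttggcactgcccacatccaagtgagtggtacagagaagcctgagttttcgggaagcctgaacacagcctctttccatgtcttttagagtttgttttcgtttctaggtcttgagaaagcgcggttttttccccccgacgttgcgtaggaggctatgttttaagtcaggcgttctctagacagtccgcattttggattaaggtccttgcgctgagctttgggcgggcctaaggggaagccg
Sdha held 3 NRF1 cores, Cox6a1 held 2 and an ETS core, Sdhd held 1 of each, and Atp5k held 1 NRF1 core. Neither the NRF1 core nor the ETS core was found in the windows of Cox7a1 and Cox7a2l. Of the 86 members, 70 had an entry, with 76 start sites between them. The NRF1 core stood in 15 of those 76 windows (19.7%), against 7.2% of the windows of all genes in the count table. The 14 members with it were Atp5c1, Atp5g2, Atp5h, Atp5k, Atp5l, Cox6a1, Ndufa11, Ndufa5, Ndufa8, Ndufb4, Ndufs5, Ndufs6, Sdha and Sdhd. The ETS core stood in 12 of 76 (15.8%, against 9.06%). The YY1 core AAGATGGCG stood in 2 windows, of Atp5j and Atp5sl (2.63%, against 0.757%), and the estrogen-related receptor element TCAAGGTCA in 1, of Atp5g3 (1.32%, against 0.318%). TATAAA stood in 9.21% of member windows and in 11.3% of all. These matches describe the letters and are not evidence of binding. The 4 falling members shown were picked for holding motifs. Cox7b and Atp5j2 also fell in EGFP cells against wild type and in EYFP against EGFP cells, with neither core in their windows. Atp5c1 and Ndufb4 held the NRF1 core and did not pass in EYFP against EGFP cells. A link between motif and change was not tested.

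Total counts per library ranged from 7938358 to 20589683. Neurog3 stood at 5.99 and 6.39 CPM (counts scaled to a common library total) in wild type, 119 and 179 CPM in EGFP cells and 563 and 348 CPM in EYFP cells. The labels give allele numbers for the reporter groups only, and the group with 2 alleles had the higher level. The summed level of 10 enteroendocrine markers was 516 to 586 CPM in wild type, 9111 to 13753 CPM in EGFP cells and 45852 to 60667 CPM in EYFP cells. Markers of other lineages were counted too, and bulk RNA does not show which cells carried them. Goblet markers (8 genes) summed to 64276 to 103486 CPM in EGFP cells, 704 to 1843 CPM in EYFP cells and 5625 to 7469 CPM in wild type, and Paneth markers (7 genes) to 14345 to 18379, 399 to 734 and 13544 to 21728 CPM. The 12 enterocyte markers summed to 34062 to 57776 CPM in wild type and to 1945 to 2781 CPM over the 4 reporter libraries, and the 12 cell cycle markers to 281 to 367 CPM in EYFP cells and 1071 to 1524 CPM elsewhere. Xist was high in both EGFP libraries and 1 wild-type library and near 0 in the EYFP libraries, so sex also goes with the comparison of the reporter groups.

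The summed level of the respiratory chain genes was lower in EGFP cells than in wild type and lower again in EYFP cells. EGFP cells against wild type is called the first step here and EYFP against EGFP cells the second, and only the second compares labelled numbers of Neurog3 alleles. Together the 86 members held 2.43% and 2.53% of all counts in the wild-type libraries, 1.54% and 1.43% in the EGFP libraries and 1.16% and 1.14% in the EYFP libraries. Their summed level was 27607 and 31436 CPM in wild type, 14710 and 14153 CPM in EGFP cells and 10144 and 9726 CPM in EYFP cells, with no overlap between groups. Both wild-type libraries lay above both EGFP libraries, and those above both EYFP libraries, for 71 of the 80 members past the filter, against 15.3% of all genes tested. All 4 complex II genes and all 9 complex III genes kept that order, as did 34 of 37 for complex I, 10 of 13 for complex IV and 14 of 17 for complex V.

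**Figure D1:**
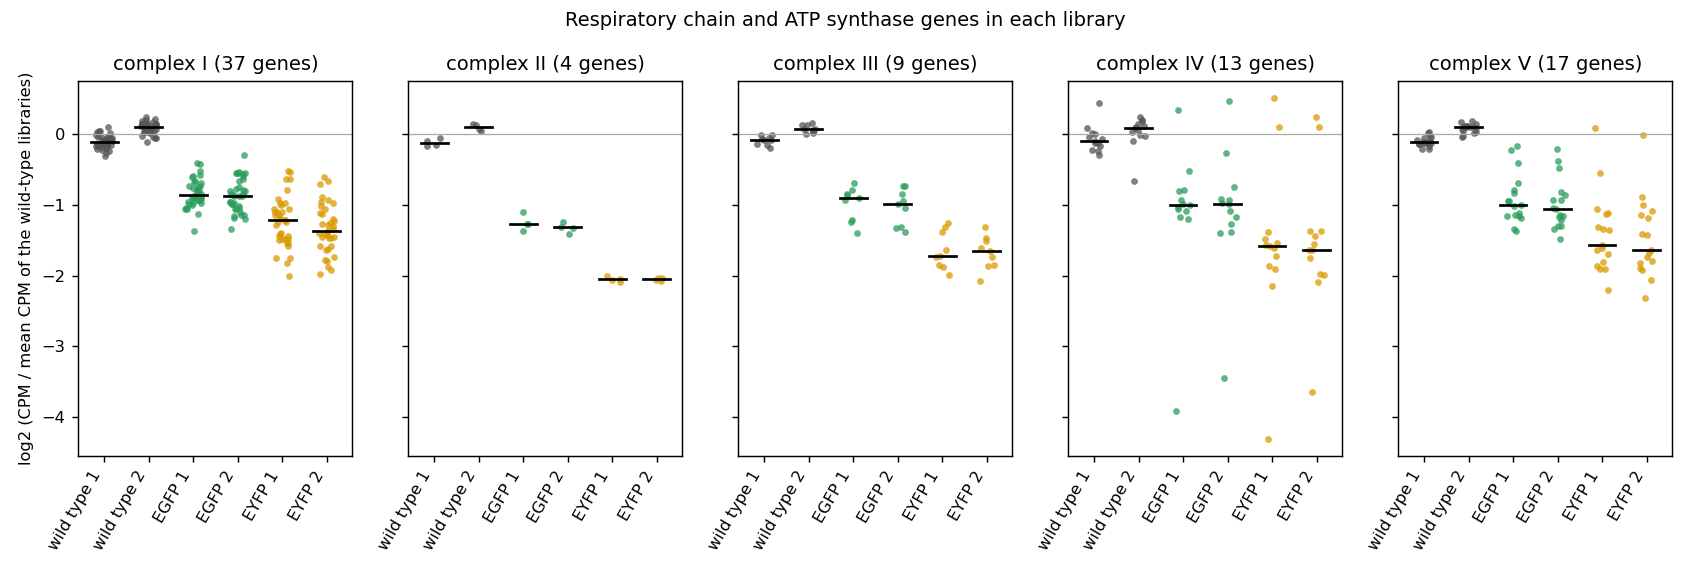
Level of each member past the filter in each library, as the log2 of its CPM over the mean CPM of the 2 wild-type libraries, with 1 panel per complex, 1 point per gene and a bar at the median. The points of the EGFP libraries lie mostly between the wild-type and EYFP libraries, the 4 complex II genes lie close together, and the lowest points of the complex IV panel are Cox7a1.

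In EGFP cells against wild type, 75 of the 80 members fell and none rose in edgeR's quasi-likelihood test at an adjusted p of 0.05, beside 21.9% lower, 19.6% higher and 41.5% in either direction among all genes tested. Both EGFP libraries lay below both wild-type libraries for 79 members, against 36.2% of all genes. At an unadjusted p under 0.05 the counts were 76 lower and 0 higher, and DESeq2 called 75 lower and 0 higher. The median log2 fold change of the members was -0.94, against 0 over all genes tested. The 5 members that did not pass were Atp5g2, Atp5s, Cox6b2, Cox7a2l and Ndufb11. Leaving out each library in turn kept 59 to 75 members lower. The 12 enterocyte markers fell with them, by a median of 4.85 on the log2 scale, and their part in the result was not tested. In bulk libraries such as these, fewer cells of a type and less RNA per cell cannot be told apart.

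In EYFP cells against EGFP cells, 49 of the 80 members fell, 1 rose and 30 did not pass, beside 19.4% lower, 16.8% higher and 36.2% in either direction among all genes tested. The members' median log2 fold change was -0.55, which is 31.5% lower, against 0.01 over all genes tested, and 77 of 80 estimates were negative. Both EYFP libraries lay below both EGFP libraries for 72 members, against 37% of all genes. At an unadjusted p under 0.05 the counts were 61 lower and 1 higher, and DESeq2 called 48 lower and 1 higher. In edgeR, 41 members were lower with DESeq2 size factors and 46 with no filter on low counts. The count of calls rested on having 2 libraries per group. It was 8 without EGFP replicate 1, 18 without EGFP replicate 2, 13 without EYFP replicate 1 and 11 without EYFP replicate 2, while the median stayed between -0.45 and -0.59. The calls over all genes dropped too, for example from 2702 to 1254 lower without EGFP replicate 1. Only Atp5j2, Atp5k, Cox7b, Ndufb9, Sdhc and Uqcrq were called lower in the main fit and in each of 13 other fits. The 12 cell cycle markers, the 8 goblet markers, the 7 Paneth markers and the 5 tested tuft cell markers all fell in this comparison, with medians of -2.27, -6.75, -5.06 and -4.34. Of 10 enteroendocrine markers 9 rose (median 1.76), and of 6 tested stromal, endothelial and muscle markers 3 rose, namely Myh11, Pecam1 and Vim. The other 3, Col1a1, Col1a2 and Col3a1, had negative estimates and did not pass, and Acta2 had no count in either EYFP library. The summed level of the 9 listed stromal, endothelial and muscle markers was 178 to 185 CPM in EGFP cells and 903 to 1742 CPM in EYFP cells. EYFP replicate 1 stood apart in the summed level of 9 immune markers, with 226 CPM against 7.4 CPM in EYFP replicate 2 and 16.2 to 47.8 CPM in EGFP cells. Of the 12 enterocyte markers 1 fell and none rose in edgeR. Which cells these markers came from, and their part in the result, was not tested.

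In EYFP cells against wild type, 77 of 80 members fell and none rose, beside 33.5% lower, 27.1% higher and 60.6% in either direction among all genes tested. Both EYFP libraries lay below both wild-type libraries for 77 members, against 45% of all genes. The unadjusted counts were 77 lower and 0 higher, and DESeq2 called 77 lower and 1 higher. The median log2 fold change was -1.45, against -0.12 over all genes tested. Atp5s, Cox6b2 and Cox7a2l did not pass, and 75 members fell in all 14 fits. Each library enters 2 of the 3 comparisons, so they are not independent of one another.

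**Figure D2:**
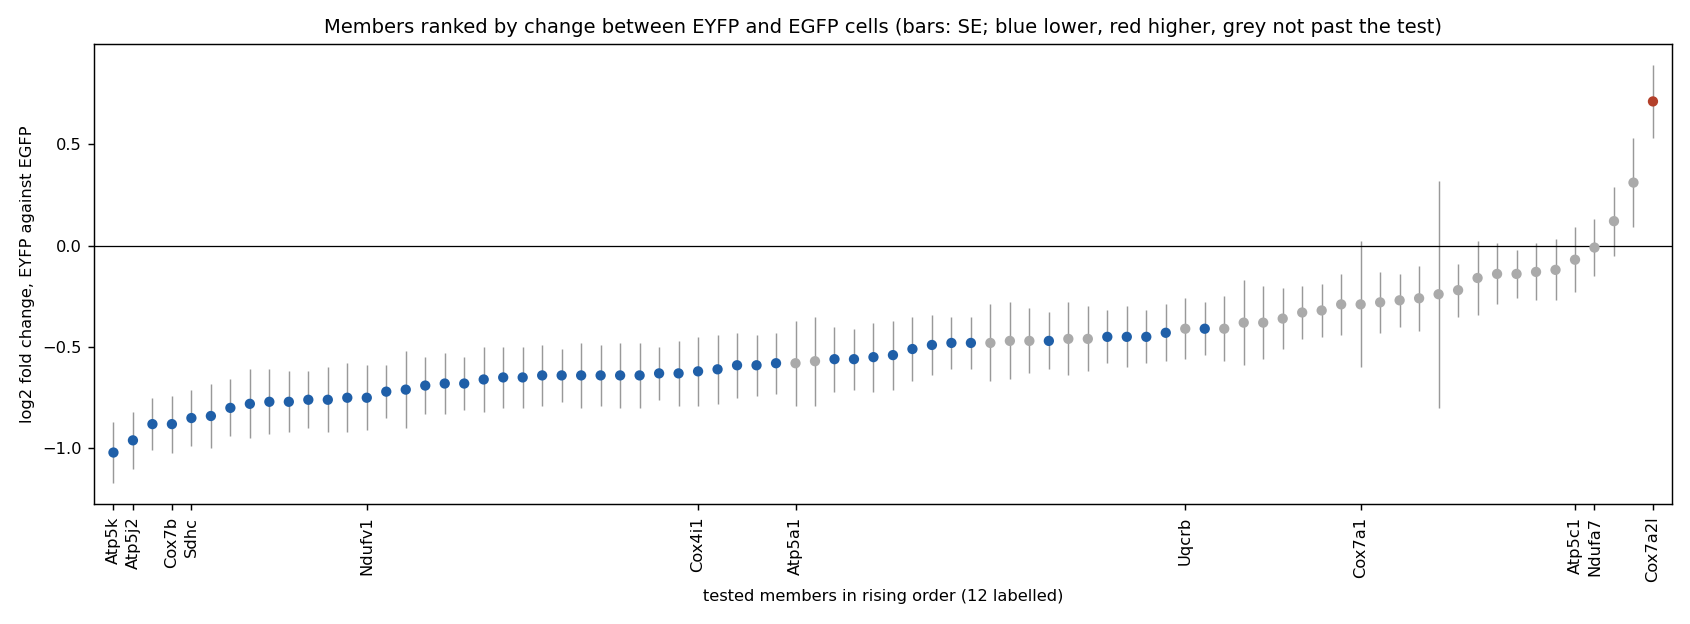
Log2 fold change of each of the 80 tested members in EYFP cells against EGFP cells, in rising order, 12 of them labelled, with bars of 1 SE, blue for members that fell, red for the 1 that rose and grey for those not past the edgeR test. Atp5k lies lowest at -1.02 and Cox7a2l highest at 0.71.

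Complex I oxidises NADH and is the largest of the complexes. Its summed level was 54.7 ± 0.774% of the wild-type mean in EGFP cells and 40 ± 1.7% in EYFP cells (SD, n = 2), the highest share of the 5 complexes in both groups. Here and below, the SD of such a share leaves out the spread between the wild-type libraries. For complex I these stood at 94% and 106% of their mean. Against wild type, 36 of the 37 tested members of complex I fell in EGFP cells (median -0.86) and 37 in EYFP cells (median -1.27). In EYFP against EGFP cells 18 fell and 19 did not pass (median -0.45). Of all genes tested, 21.9%, 33.5% and 19.4% fell in these comparisons, to be read beside the counts of each complex. Among the nuclear core subunits, which form the electron path of the peripheral arm, Ndufv1, Ndufs1, Ndufs3, Ndufs7 and Ndufs8 fell between the reporter groups, the last 4 of them losing the call in 3 or 4 of the fits without a reporter library (adjusted p up to 0.3 for Ndufs1). With all 6 libraries, Ndufs1 and Ndufs3 also lost the call in edgeR with DESeq2 size factors (adjusted p = 0.077 and 0.066). They lost it too in edgeR with no filter on low counts (0.074 and 0.051) and in DESeq2's Wald test (0.06 and 0.069). Ndufv2 did not pass, at -0.33 (adjusted p = 0.08).

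Ndufv1, which binds NADH and flavin, stood at 276 and 339.8 CPM in wild type, 149 and 139 CPM in EGFP cells and 91.1 and 81 CPM in EYFP cells. No library of a group overlapped with another group, in an order kept by 15.3% of all genes tested. Its log2 fold change was -1.09 ± 0.16 (SE, adjusted p = 0.0011) in EGFP cells against wild type and -0.75 ± 0.16 (SE, adjusted p = 0.0091) in EYFP against EGFP cells. Leaving out EGFP replicate 1 or EYFP replicate 2 ended the latter call (adjusted p = 0.066 and 0.072). Ndufb9, an accessory subunit of the membrane arm, had 250.2 and 302 CPM in wild type, 141 and 141 CPM in EGFP and 81.7 and 79.6 CPM in EYFP cells. It showed the lowest estimate of complex I between the reporter groups, -0.80 ± 0.14 (SE, adjusted p = 0.0047), with 23.4% of its 50-base stretches shared with another gene. Ndufa5, an accessory subunit of the peripheral arm, fell furthest of complex I in EGFP cells against wild type, from 91.9 and 111 to 39.3 and 39.9 CPM, or -1.35 ± 0.15 (SE, adjusted p = 0.00029), and reached 25.1 and 25.7 CPM in EYFP cells. Its fall between the reporter groups, -0.64 (adjusted p = 0.013), was lost without any 1 of the 4 reporter libraries, at adjusted p of 0.055 to 0.075. Ndufa10, which sits on the membrane arm, went from 249 and 233 over 119.9 and 109 to 68.5 and 70.3 CPM. It fell by 3.47-fold in EYFP cells against wild type, and its call between the reporter groups, -0.72 (adjusted p = 0.0049), was lost without EGFP replicate 1 (0.063). Ndufb10 fell by 2.17-fold in EGFP cells against wild type.

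Not every complex I gene followed. Ndufa7 had 58.5 and 61.3 CPM in EGFP cells and 62.4 and 56.7 CPM in EYFP cells, which overlap, with a log2 difference of -0.01 ± 0.14 (SE, adjusted p = 0.97). Both reporter groups lay below the 84.2 and 94.2 CPM of wild type. The fall of Ndufa7 in EYFP cells against wild type, -0.58 (adjusted p = 0.0064), was lost without EYFP replicate 2 (0.054). Ndufa1 and Ndufb11 are X-linked, as is Cox7b. Ndufb11 stood at 168 and 158 CPM in wild type, 123 and 133 CPM in EGFP and 113 and 107 CPM in EYFP cells. It was the complex I gene that did not pass in EGFP cells against wild type, -0.35 (adjusted p = 0.062), and its fall in EYFP cells, -0.57 (adjusted p = 0.006), was at the threshold without EYFP replicate 2 (0.05). Ndufa1 fell in EGFP cells, -0.85 (adjusted p = 0.0065), which ended at 0.059 when EGFP replicate 1 was left out, and did not pass between the reporter groups, -0.16 (adjusted p = 0.51). Without the 3 X-linked members, 73, 48 and 74 members were lower in the 3 comparisons, beside 21.9%, 19.4% and 33.5% of all genes tested. Ndufs8, which holds iron-sulfur clusters, had the smallest fall of the core subunits named above in EGFP cells, -0.49 (adjusted p = 0.017), lost without either EGFP library (0.08 and 0.12) or wild-type replicate 2 (0.055). Another 11 complex I genes lost the same call in at least 1 such fit, namely Ndufa2, Ndufa4, Ndufa7, Ndufa13, Ndufb2, Ndufb3, Ndufc2, Ndufs4, Ndufs5, Ndufs6 and Ndufv3.

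Ndufa4 is grouped with complex I by its symbol but is known as a subunit of complex IV. Its level was 322 and 280 CPM in wild type, 178 and 204 CPM in EGFP cells and 108 and 116 CPM in EYFP cells. The log2 fold change was -0.66 ± 0.15 (SE, adjusted p = 0.0094) for the first step and -0.77 ± 0.15 (SE, adjusted p = 0.0068) for the second. The first call was lost without EGFP replicate 1 (0.15) and the second without EGFP replicate 2 (0.051) or EYFP replicate 1 (0.059).

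Complex II, succinate dehydrogenase, also belongs to the tricarboxylic acid cycle and has no subunit from mitochondrial DNA. Its 4 genes held the lowest summed share of wild type of all 5 complexes, 40.8 ± 1.28% in EGFP cells and 24 ± 0.0506% in EYFP cells (SD, n = 2). The wild-type libraries stood at 92.5% and 107.5% of their mean, a spread that these SDs leave out. All 4 genes fell in each comparison. Their medians were -1.29 in EGFP cells against wild type, -0.77 in EYFP against EGFP cells and -2.06 in EYFP cells against wild type. Their fold changes in the last comparison spanned only -2.07 to -2.02.

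Sdha, the flavoprotein that oxidises succinate (chr13:74322255-74350240, mm10), stood at 936 and 1055 CPM in wild type, 414 and 400.2 CPM in EGFP cells and 239 and 235 CPM in EYFP cells. The log2 fold change was -1.29 ± 0.17 (SE, adjusted p = 0.00069) for EGFP cells against wild type and -0.78 ± 0.17 (SE, adjusted p = 0.0095) for EYFP against EGFP cells. Sdhb, the iron-sulfur subunit, went from 412 and 513 over 178 and 173 to 112 and 111 CPM. It fell by 2.63-fold and then by 1.58-fold, the furthest of the core subunits in EGFP cells against wild type. Sdhc and Sdhd anchor the enzyme in the membrane. Sdhc (chr1:171129157-171150640) had 328 and 348 CPM in wild type, 158 and 143 CPM in EGFP and 83.8 and 82.8 CPM in EYFP cells, with a log2 fold change of -0.85 ± 0.14 (SE, adjusted p = 0.0029) between the reporter groups that passed in every fit. Sdhd, whose promoter window holds both motifs, had 513 and 629, 237 and 228 and 134 and 139 CPM in the same order. In none of the 4 genes did the libraries of 2 groups overlap, in an order kept by 15.3% of all genes tested. The calls between the reporter groups for Sdha (adjusted p of 0.052 to 0.083) and Sdhb (0.066 to 0.098) were lost without any 1 of the 4 reporter libraries, and that for Sdhd without EGFP replicate 1, EYFP replicate 1 or EYFP replicate 2 (0.073, 0.073 and 0.057).

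Complex III passes electrons from ubiquinol to cytochrome c. Its summed level was 47.4 ± 1.57% of wild type in EGFP cells and 30.2 ± 0.371% in EYFP cells (SD, n = 2). All 9 genes fell in each group against wild type (medians -0.94 and -1.69), and 8 fell between the reporter groups (median -0.65). Uqcrb did not pass there, at -0.41 (adjusted p = 0.069). Cyc1, the cytochrome c1 heme protein, stood at 623 and 758 CPM in wild type, 293 and 277 CPM in EGFP and 174 and 164 CPM in EYFP cells. It fell by 2.42-fold and then by 1.69-fold, the second with an adjusted p of 0.011 that became 0.051 to 0.086 without any 1 of the 4 reporter libraries. The Rieske iron-sulfur protein gene Uqcrfs1 took most of its fall in the first step, from 380 and 385 to 145 and 147 CPM, -1.39 ± 0.13 (SE, adjusted p = 0.00017). Its second step, to 104 and 106 CPM, was -0.48 ± 0.13 (SE, adjusted p = 0.025) and was lost without any 1 reporter library (0.12 to 0.15). Uqcrq, a small subunit near the ubiquinone site, took the 2 steps almost equally. Its levels were 226 and 250.2, 132 and 133 and 72.3 and 71.4 CPM, and its log2 fold changes -0.85 ± 0.13 and -0.88 ± 0.13 (SE), with the second called in every fit. Uqcrh, the hinge protein, showed -0.76 (adjusted p = 0.0058) between the reporter groups, lost without EGFP replicate 1 (0.061) or EYFP replicate 1 (0.057). Uqcrc1, a core protein, fell in EGFP cells from 755 and 823 to 341 and 314 CPM. In that comparison Uqcr11 alone of complex III lost its call in any fit, without EGFP replicate 1 (0.053) or EGFP replicate 2 (0.055).

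Complex IV, cytochrome c oxidase, reduces oxygen, and its nuclear subunits surround a core made from mitochondrial DNA. The summed level was 48.9 ± 1.06% of wild type in EGFP cells and 35 ± 1.31% in EYFP cells (SD, n = 2). Of 13 tested members, 11 fell in EGFP cells (median -1.01) and 11 in EYFP cells (median -1.60) against wild type. Between the reporter groups 9 fell and Cox7a2l rose, while Cox5b, Cox6b2 and Cox7a1 did not pass (median -0.61). Cox7c lost the call in EGFP cells against wild type without either EGFP library (0.074 and 0.051).

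Cox7b, a small subunit encoded on the X chromosome (chrX:106015700-106022450), stood at 423 and 446 CPM in wild type, 189.6 and 193 CPM in EGFP cells and 97.5 and 109.8 CPM in EYFP cells. The log2 fold change was -1.18 ± 0.14 (SE, adjusted p = 5e-04) and then -0.88 ± 0.14 (SE, adjusted p = 0.0031), and both calls held in every fit. The sex of the libraries goes with the second step, and its part was not tested. Cox5a, a subunit on the matrix side, went from 389 and 384 over 183 and 146 to 104 and 90.5 CPM. Cox6a1 went from 555 and 754 over 291 and 272 to 179.8 and 165 CPM, and Cox4i1, which binds ATP as a regulator of the enzyme, from 711 and 875 over 388 and 402 to 259 and 254 CPM. Between the reporter groups their log2 fold changes were -0.76 (adjusted p = 0.0099), -0.71 (adjusted p = 0.023) and -0.62 (adjusted p = 0.026). Cox5a lost this call without EGFP replicate 1 (0.1) or EYFP replicate 2 (0.078), and Cox6a1 and Cox4i1 lost it without any 1 reporter library (up to 0.13 each). Cox6b1 and Cox8a fell as well, by 1.61-fold and 1.54-fold. Cox6b1 lost this call without 3 of the 4 reporter libraries (up to 0.09) and Cox8a without any 1 of them (up to 0.15).

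The COX7A family departed from this pattern in both directions. Cox7a2, the form found in most tissues, followed the complex, with 272 and 296 CPM in wild type, 137 and 149 CPM in EGFP and 97.3 and 109 CPM in EYFP cells. Its fall between the reporter groups, -0.47 (adjusted p = 0.034), was lost without any 1 of their libraries (0.087 to 0.2). Cox7a1 (chr7:30184171-30186030), best known as the form of heart and skeletal muscle, stood at 91.5 and 132 CPM in wild type against 7.35 and 10.2 CPM in EGFP cells and 5.63 and 8.91 CPM in EYFP cells. Its wild-type libraries lay far above the 4 others, and the reporter groups overlapped. The log2 fold change was -3.66 ± 0.30 (SE, adjusted p = 0.00014) in EGFP cells and -3.95 ± 0.30 (SE, adjusted p = 4.3e-05) in EYFP cells, a 12.6-fold and a 15.4-fold difference and the furthest falls of the 80 members tested. Between the reporter groups it was -0.29 ± 0.31 (SE, adjusted p = 0.49). The muscle markers Acta2, Des and Myh11 were at 0.663 CPM or less in the wild-type libraries. The ratio of Cox7a1 to Cox7a2 was 0.337 and 0.446 in wild type, and 0.0537, 0.0685, 0.0579 and 0.0814 in the 4 reporter libraries.

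Cox7a2l (chr17:83501917-83514333), which joins complexes III and IV into supercomplexes and of which laboratory mouse strains carry different alleles, was the single member that rose in edgeR in any comparison. It stood at 242 and 233 CPM in wild type, 167 and 197 CPM in EGFP cells and 339.7 and 256 CPM in EYFP cells. Both EYFP libraries lay above all others, and they differed from each other more than did those of the other groups. The log2 fold change was 0.71 ± 0.18 (SE, adjusted p = 0.019) in EYFP against EGFP cells, -0.38 ± 0.18 (SE, adjusted p = 0.13) in EGFP cells against wild type and 0.33 ± 0.18 (SE, adjusted p = 0.15) in EYFP cells against wild type. The rise did not pass without EGFP replicate 1 (0.11), EGFP replicate 2 (0.05, at the threshold) or EYFP replicate 1 (0.13). DESeq2 called it higher also in EYFP cells against wild type. The EYFP mice alone carry CD1 background, so allele and group cannot be told apart for Cox7a2l. Of its 50-base stretches 17.8% also occur in Gm6969, a gene not in the count table.

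**Figure D3:**
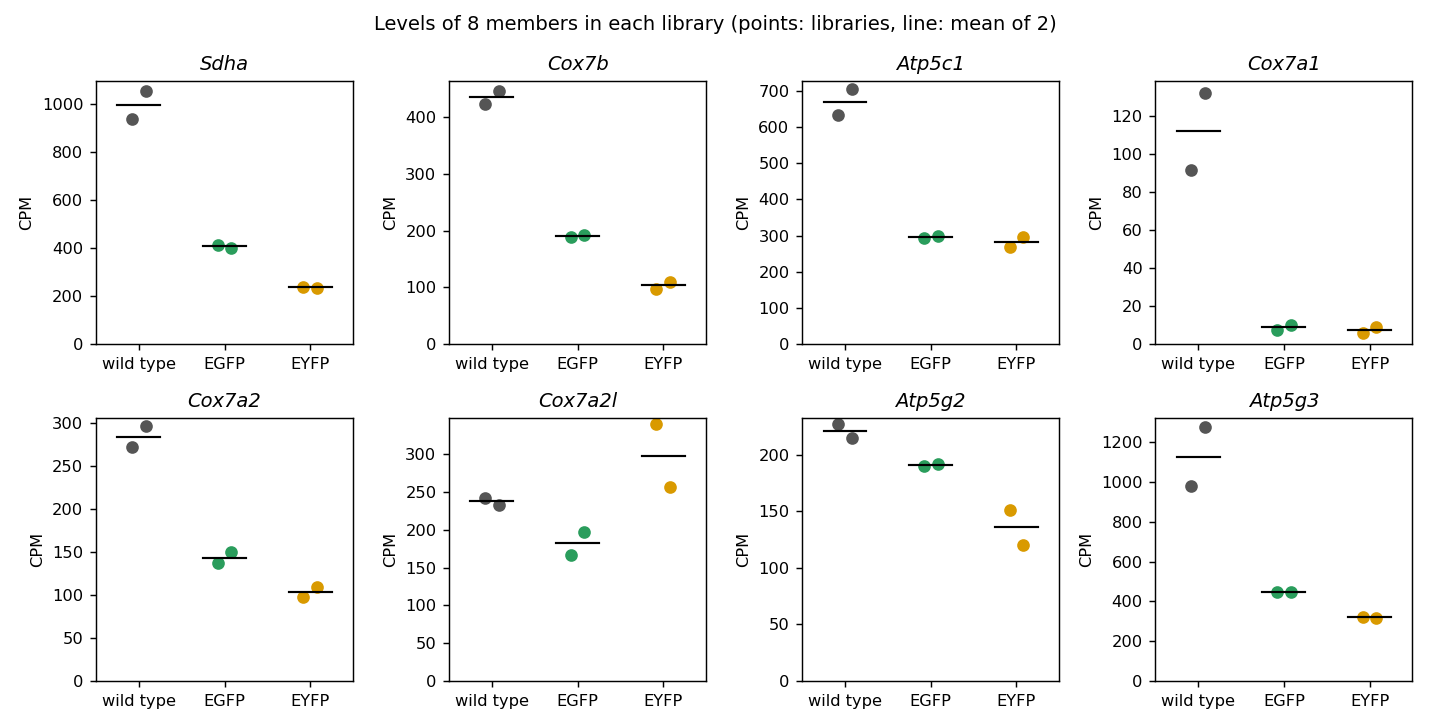
Levels in CPM of 8 members in each library, with 1 point per library, a line at the mean of 2 and every vertical axis starting at 0. Sdha and Cox7b step down from wild type to EGFP to EYFP cells, Cox7a1 is low in both reporter groups, Atp5c1 takes its fall in the first step, and Cox7a2l is highest in EYFP cells.

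ATP synthase has a catalytic head of alpha, beta, gamma, delta and epsilon subunits, a ring of c subunits in the membrane and a peripheral stalk. The summed level of the 17 genes with Atp5 symbols was 48.1 ± 1.65% of wild type in EGFP cells and 33 ± 0.92% in EYFP cells (SD, n = 2). These 17 include Atp5s and Atp5sl, which are not subunits of the enzyme. Against wild type 15 fell in EGFP cells (median -1.03) and 16 in EYFP cells (median -1.60). Between the reporter groups 10 fell and 7, with Atp5s and Atp5sl among them, did not pass (median -0.56). The beta subunit gene Atp5b stood at 3449 and 3993 CPM in wild type, 1838 and 1796 CPM in EGFP and 1259 and 1192 CPM in EYFP cells. The alpha subunit gene Atp5a1 stood at 2652 and 2864, 1383 and 1254 and 904 and 865 CPM. For both, no libraries overlapped between groups. Among all genes tested, both EYFP libraries lay below both EGFP libraries for 37% and above them for 37.3%. The second step of Atp5b and Atp5a1 did not pass, with log2 differences of -0.57 ± 0.22 (SE, adjusted p = 0.079) and -0.58 ± 0.21 (SE, adjusted p = 0.061). In DESeq2 the second step passed for both (adjusted p = 0.0016 for Atp5b and 0.00066 for Atp5a1). In edgeR it passed for both with only the 4 reporter libraries (0.021 and 0.018) and without either wild-type library (0.021 to 0.027), and for Atp5a1 also with a replicate block (0.044). Their first steps, -1.03 (adjusted p = 0.0072) and -1.06 (adjusted p = 0.0046), were lost without EGFP replicate 1 (0.088 and 0.054) or EGFP replicate 2 (0.074 and 0.062).

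The gamma subunit gene Atp5c1 (chr2:10056030-10080510) encodes the rotating shaft of the head. It had 632 and 705 CPM in wild type, 294 and 298 CPM in EGFP cells and 269 and 295 CPM in EYFP cells. The reporter groups overlapped, with a log2 difference of -0.07 ± 0.16 (SE, adjusted p = 0.77), while both lay below wild type by 2.26-fold and 2.37-fold. The ratio of Atp5c1 to Atp5b counts was 0.183 and 0.176 in wild type, 0.16 and 0.166 in EGFP cells and 0.214 and 0.248 in EYFP cells, highest in both EYFP libraries. The epsilon subunit gene Atp5e showed a smaller first step than second. Its levels were 199 and 235, 165 and 155 and 98.9 and 98.8 CPM, and its log2 fold changes -0.44 ± 0.14 (SE, adjusted p = 0.036) and -0.69 ± 0.14 (SE, adjusted p = 0.0076). The first call was lost in 5 of the 6 fits without 1 library (0.071 to 0.19) and the second in 3 (0.051 to 0.062). Atp5d, the delta subunit, fell in both steps, -1.23 (adjusted p = 0.001) and -0.54 (adjusted p = 0.043), the second lost without any 1 reporter library (0.079 to 0.24).

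Atp5k and Atp5j2, small subunits of the membrane part, had the lowest estimates of all members between the reporter groups. Atp5k, the e subunit that helps hold ATP synthase dimers together (chr5:108433246-108434399), had 195 and 201 CPM in wild type, 111 and 95.9 CPM in EGFP and 54.5 and 47.3 CPM in EYFP cells. Its log2 fold change of -1.02 ± 0.15 (SE, adjusted p = 0.0019) was the lowest of all 80 members in that comparison. Atp5j2, the f subunit, went from 321 and 369 over 179 and 181 to 92.2 and 92.8 CPM, with -0.96 ± 0.14 (SE, adjusted p = 0.0021) for the second step. For both genes all groups were apart, in an order kept by 15.3% of all genes tested, and the call held in every fit. Atp5o, the stalk subunit OSCP, had 538 and 627, 225 and 209 and 126 and 117 CPM. It fell by 2.68-fold in the first step and 1.79-fold in the second, the latter lost without EGFP replicate 1 or EYFP replicate 2 (0.054 each). Of its 50-base stretches 35.5% occur in another annotated gene. The largest share, 24.6%, is with an entry that also carries the symbol Atp5o, and 0% occur in another gene of the count table. Atp5j, a stalk subunit, fell in both steps, but its first call was lost without EGFP replicate 2 (0.061) and its second without any 1 reporter library (0.053 to 0.12). Atp5l, another small membrane subunit, did not pass between the reporter groups, -0.27 (adjusted p = 0.15).

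The 3 genes Atp5g1, Atp5g2 and Atp5g3 encode the same mature c subunit. Atp5g3 stood at 979.7 and 1276 CPM in wild type, 446 and 446 CPM in EGFP and 322 and 318 CPM in EYFP cells, and Atp5g1 at 479.9 and 547, 233 and 209.8 and 137 and 148 CPM. Atp5g2 had 227 and 215 CPM in wild type, 190.1 and 191 CPM in EGFP cells and 151 and 120 CPM in EYFP cells. In EGFP cells against wild type the log2 fold change was -1.34 ± 0.19 (SE, adjusted p = 0.0011) for Atp5g3 and -1.21 ± 0.16 (SE, adjusted p = 0.00068) for Atp5g1, but -0.21 ± 0.15 (SE, adjusted p = 0.31) for Atp5g2, which did not pass. Between the reporter groups Atp5g1 and Atp5g2 fell, -0.64 (adjusted p = 0.016) and -0.49 (adjusted p = 0.04), calls lost without any 1 reporter library, and Atp5g3 did not pass, -0.48 (adjusted p = 0.085). For Atp5g3 that step passed with only the 4 reporter libraries (0.016) and without either wild-type library (0.025 and 0.021). The ratio of Atp5g2 to Atp5g3 was 0.232 and 0.168 in wild type and 0.378 to 0.471 over the 4 reporter libraries. The difference between the genes was not tested. Atp5g2 shares 87.4% of its 50-base stretches with Gm10175, a gene not in the count table, so its counts are uncertain.

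**Figure D4:**
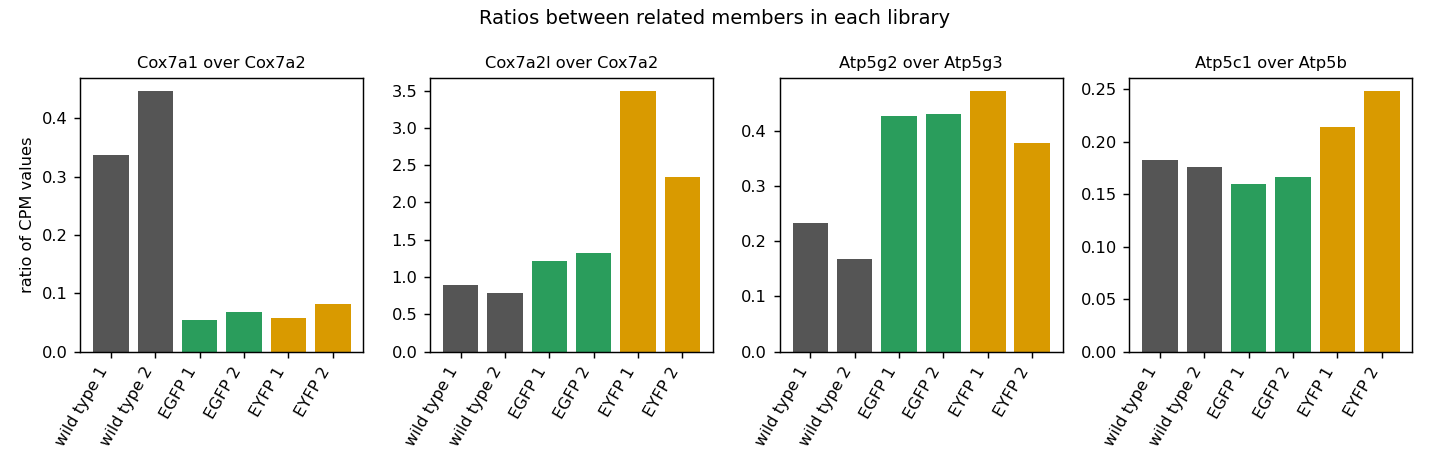
Ratio of the counts of 2 related members within each library, as 1 bar per library on axes that start at 0. Cox7a1 over Cox7a2 is low in the 4 reporter libraries, Cox7a2l over Cox7a2 and Atp5c1 over Atp5b are highest in the EYFP libraries, and Atp5g2 over Atp5g3 is higher in all reporter libraries than in wild type.

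Atp5s and Atp5sl carry Atp5 symbols but are not subunits of the enzyme, and Atp5sl is known to act in complex I assembly. Atp5s stood at 7.86 to 10.9 CPM over all 6 libraries and did not pass in any comparison. Atp5sl had 57.3 and 75.3 CPM in wild type, 29.8 and 29.8 CPM in EGFP and 31.7 and 33.2 CPM in EYFP cells. It fell against wild type in both groups, -1.15 (adjusted p = 0.0012) and -1.03 (adjusted p = 0.0011), and did not pass between them, 0.12 (adjusted p = 0.6).

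The tissue-restricted members were near 0. Cox8b, Cox8c and Cox7b2 had no count in any library. Cox4i2, the hypoxia-linked form of Cox4, had 1 count in each wild-type library, and Ndufa4l2 had 2 counts in EYFP replicate 2. A group at 0 allows up to 0.149 CPM in EGFP cells, 0.115 CPM in EYFP cells and 0.105 CPM in wild type, taken as 3 counts over the group. Cox6a2, the muscle form of Cox6a, had 8 and 13 counts in wild type, 1 and 0 in EGFP cells and 1 and 1 in EYFP cells. Its level was 14.8-fold lower in EGFP cells (95% Clopper-Pearson interval 2.38 to 611) and 9.58-fold lower in EYFP cells (2.34 to 84.2) than in wild type, where intervals and floors cover counting error only. Cox6b2, the testis form, passed the filter at 0.542 to 1.18 CPM and did not pass any test. Per length, Cox6b1 made up 99.2% to 99.9% of the COX6B pair in every library.

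The mitochondrial ADP/ATP carriers did not move alike. Slc25a5, the carrier of most proliferating and epithelial tissues, stood at 1913 and 2394 CPM in wild type, 840.2 and 744 CPM in EGFP and 548 and 522 CPM in EYFP cells. It fell in the first step, -1.44 (adjusted p = 0.0013), and did not pass in the second, -0.57 (adjusted p = 0.068). Slc25a4, best known from muscle and nerve, stood at 6.91 and 11.6, 36.6 and 44.9 and 123 and 117 CPM. It rose by 4.37-fold in EGFP cells against wild type and by a further 2.93-fold in EYFP cells (adjusted p = 0.00042 and 0.0023), and both calls held without each library in turn. The phosphate carrier gene Slc25a3 fell in both steps, -1.60 (adjusted p = 0.00044) and -0.64 (adjusted p = 0.03), the second lost without any 1 reporter library (0.092 to 0.2). Of the 8 tested genes for ATP export, phosphate entry and ATP synthase inhibition, 6 fell and 1 rose in EGFP cells against wild type. Between the reporter groups 1 fell and 1 rose, and in EYFP cells against wild type 7 fell and 1 rose. The shares that fell were 75%, 12.5% and 87.5%, beside 21.9%, 19.4% and 33.5% of all genes tested. The share that rose was 12.5% in each, beside 19.6%, 16.8% and 27.1%.

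Among 47 assembly factors, 16 fell and 1 rose in EGFP cells against wild type (median -0.33), 16 fell and 0 rose between the reporter groups (median -0.43), and 33 fell and 2 rose in EYFP cells against wild type (median -0.80). The shares that fell were 34%, 34% and 70.2%, beside 21.9%, 19.4% and 33.5% of all genes tested. For that count of 0 rises, 0 genes were higher at an unadjusted p under 0.05 and DESeq2 called 0. Cmc2, a complex IV biogenesis factor, fell by 2.55-fold between the reporter groups, from 14.3 and 12.3 to 4.86 and 5.55 CPM. Coa7 fell by 2.42-fold in EGFP cells, and Taco1, a translational activator of cytochrome c oxidase, by 3.44-fold in EYFP cells, both against wild type. Uqcc2, a complex III factor, rose from 26.2 and 27.2 CPM in wild type to 42.5 and 38.9 and 48 and 43 CPM. Of 19 genes for electron carriers and ubiquinone synthesis, 12 fell in EGFP cells, 6 between the reporter groups and 14 in EYFP cells against wild type. These are 63.2%, 31.6% and 73.7%, to be read beside the same shares of all genes. None of them rose in edgeR or, in the comparisons with wild type, in DESeq2 or at an unadjusted p under 0.05. Between the reporter groups 2 were higher at an unadjusted p and 2 in DESeq2. Pdss1, which builds the ubiquinone tail, fell by 2.48-fold there, and cytochrome c itself, Cycs, fell in EGFP cells, -1.41 (adjusted p = 0.00092), but did not pass between the reporter groups, -0.13 (adjusted p = 0.62). The glycerol phosphate dehydrogenase gene Gpd2 fell in EGFP cells, -1.68 (adjusted p = 0.00068).

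Of 19 genes of the tricarboxylic acid cycle and pyruvate dehydrogenase, complex II left out, 17 fell in EGFP cells (median -1.04), 10 between the reporter groups (median -0.55) and 19 in EYFP cells against wild type (median -1.59), and none rose in edgeR, in DESeq2 or at an unadjusted p under 0.05. Cs, citrate synthase, went from 962 and 1409.9 over 387 and 345 to 177 and 177 CPM, its second step -1.05 (adjusted p = 0.0089) being lost without EGFP replicate 1, EYFP replicate 1 or EYFP replicate 2 (0.072, 0.06 and 0.057). Mdh2 fell by 3.84-fold in EGFP cells against wild type. Suclg2, the GTP-forming succinyl-CoA ligase subunit, did not pass in the first step, -0.30 (adjusted p = 0.16), and fell in the second from 169.9 and 153 to 37.5 and 43.2 CPM, a 4.01-fold difference (adjusted p = 0.00026). Calls among glycolysis genes went both ways, with 14 of 24 lower and 4 higher in EGFP cells, 5 lower and 3 higher between the reporter groups, and 13 lower and 5 higher in EYFP cells against wild type. The shares lower were 58.3%, 20.8% and 54.2%, beside 21.9%, 19.4% and 33.5% of all genes tested, and the shares higher 16.7%, 12.5% and 20.8%, beside 19.6%, 16.8% and 27.1%. The lactate carrier gene Slc16a1 fell by 3.89-fold between the reporter groups.

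Of 77 mitochondrial ribosomal protein genes, 15 or 19.5% were lower in EGFP cells against wild type (median -0.28), beside 21.9% of all genes tested, and 39 or 50.6% between the reporter groups (median -0.50), beside 19.4%, and none was higher in edgeR or DESeq2 in either. At an unadjusted p under 0.05, 0 and 1 were higher. In EYFP cells against wild type 62 fell and Mrpl1 rose, 0.52 (adjusted p = 0.026), a rise lost without either EYFP library (0.12 and 0.063) or wild-type replicate 2 (0.11). Among these genes, which were listed by symbol only, Mrpl12 fell by 2.33-fold between the reporter groups, and Mrps36 by 2.46-fold in EGFP cells. Of 26 import and chaperone genes, 9 fell in EGFP cells (median -0.35), 17 between the reporter groups (median -0.65) and 23 in EYFP cells against wild type (median -1.02). The shares were 34.6%, 65.4% and 88.5%, beside 21.9%, 19.4% and 33.5% of all genes tested. Tomm5, a small part of the outer membrane pore, had 65.7 and 50.6 CPM in EGFP and 23.9 and 21.9 CPM in EYFP cells, -1.34 ± 0.17 (SE, adjusted p = 0.0011). Tomm70a fell by 1.82-fold in EGFP cells and Timm10 by 2.85-fold in EYFP cells, both against wild type.

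Of 23 regulators of mitochondrial biogenesis, 6 fell and 1 rose in EGFP cells against wild type, 8 fell and 3 rose between the reporter groups, and 11 fell and 3 rose in EYFP cells against wild type. The shares that fell were 26.1%, 34.8% and 47.8%, beside 21.9%, 19.4% and 33.5% of all genes tested, and the shares that rose were 4.35%, 13% and 13%, beside 19.6%, 16.8% and 27.1%. Ppargc1a, the coactivator PGC-1 alpha, stood at 49 and 101 CPM in wild type, 6.87 and 4.9 CPM in EGFP cells and 5.35 and 8.07 CPM in EYFP cells. It fell by 12.8-fold in EGFP cells (log2 fold change -3.68, adjusted p = 0.00082; -3.07 without wild-type replicate 2, adjusted p = 0.00084) and did not pass between the overlapping reporter groups, 0.20 (adjusted p = 0.75). The nuclear receptor gene Esrra went from 235 and 359 over 91.4 and 96.1 to 53.4 and 47.1 CPM, falling in both steps, -1.67 (adjusted p = 6e-04) and -0.90 (adjusted p = 0.013). Nrf1 itself did not pass in any comparison, with log2 differences of 0.04, 0.04 and 0.08. The mitochondrial transcription factor gene Tfam fell between the reporter groups, -0.69 (adjusted p = 0.011), and did not pass in EGFP cells against wild type, -0.17 (adjusted p = 0.4). Myc fell by 3.11-fold between the reporter groups. Mterf4, which acts on the mitochondrial ribosome, rose from 13 and 13 CPM in wild type to 17.8 and 21.3 CPM in EGFP and 39.9 and 47.7 CPM in EYFP cells, and its first step was lost in 5 of 6 fits without 1 library (0.051 to 0.2).

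**Figure D5:**
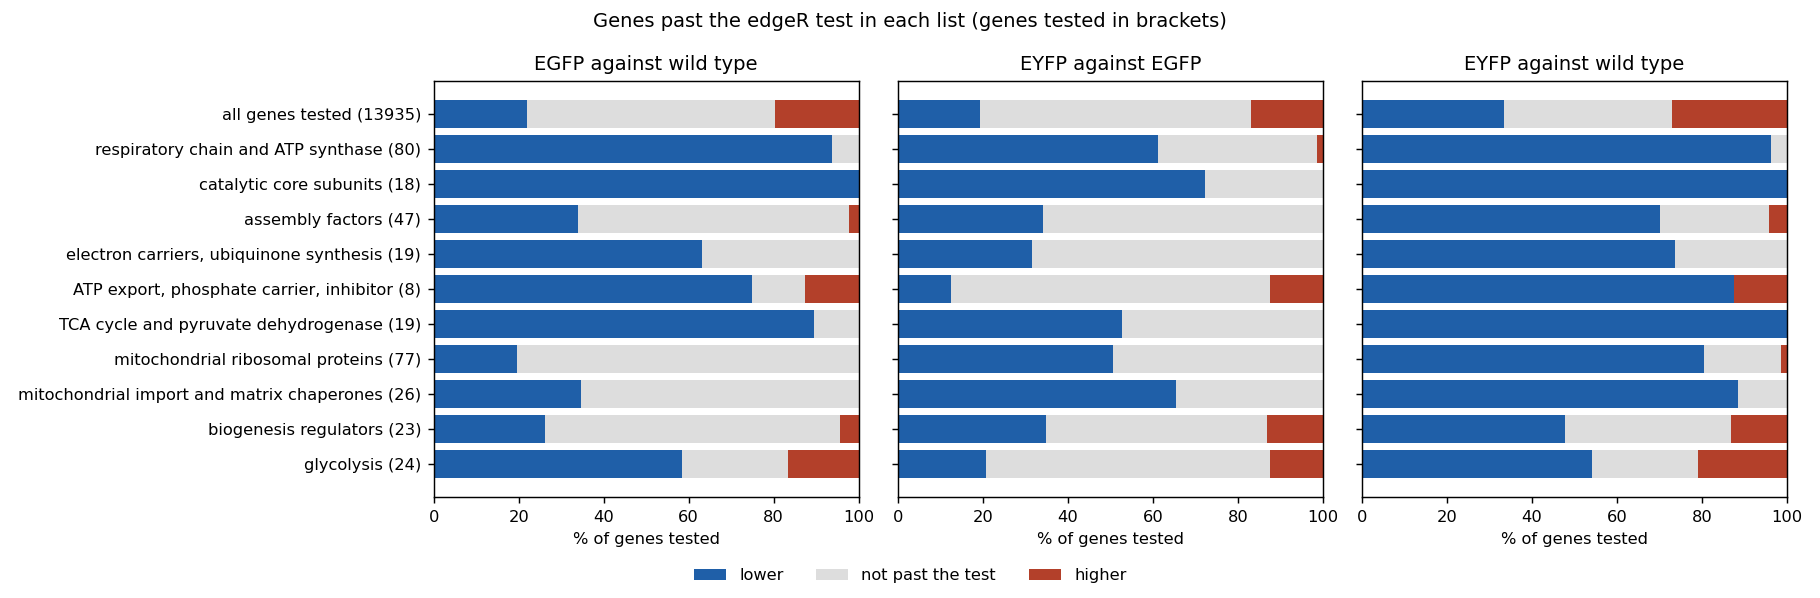
Share of the tested genes of each list that fell (blue), rose (red) or did not pass the edgeR test (grey) in each comparison, in % of the genes tested, with all genes tested as the top bar. The respiratory chain and tricarboxylic acid cycle bars are mostly blue in both comparisons with wild type, whereas the mitochondrial ribosome and import bars are mostly grey in EGFP cells against wild type.

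Members were also counted by shared sequence, as the share of a gene's 50-base stretches, the length of a read, that occur in the transcripts of another gene of the GENCODE annotation. It was under 10% for 64 members. Of the 58 of these that were tested, 55 fell in EGFP cells, 35 between the reporter groups and 56 in EYFP cells against wild type. Of the 22 members at 10% or more, 20, 14 and 21 fell, and Cox7a2l rose between the reporter groups. Of all genes tested, 21.9%, 19.4% and 33.5% fell in the same comparisons, and 16.8% rose between the reporter groups. Beside Atp5g2, the members with the most shared sequence were Atp5l (68.5%), Ndufa12 (53.8%), Cox7c (53%) and Atp5h (50.5%), and their levels are uncertain for that reason. In the authors' deposited table of comparisons, 81 members had a row. That authors' deposited table gives 73 lower in EGFP cells against wild type and 76 lower in EYFP cells against wild type. Between the reporter groups that authors' deposited table gives 54 lower and 1 higher, Cox7a2l. The shares called over all its genes were not counted here.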

How the data were processed

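Per the labels' protocols, RNeasy Micro RNA and the Illumina TruSeq kit gave libraries that a HiSeq2000 read from 1 end over 50 bases. The submitters' processing notes name the mm10 build, RSEM 1.3.1, Bowtie2, DESeq2 1.26.0 and FastQC 0.11.8. What each tool did, its settings and the use of strand are not stated in the sources used. The authors deposited estimated counts per gene, and these need not be whole numbers. A second deposited table has, for each library, the authors' normalised signal and, for each comparison, their linear fold and adjusted p-value, of which only the calls were used. Columns of the EYFP libraries carry EGFP with the word addon in their names and were matched to the titles that hold that word.

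Estimated counts were rounded, filtered with filterByExpr (58.4% of 23845 genes kept), scaled with TMM factors and tested in edgeR 4.0.16 (R 4.3.3) with the robust quasi-likelihood F test in 1 model of 3 group means over 6 libraries. There were 3 residual degrees of freedom and a biological coefficient of variation of 19.8%. P-values were adjusted over the 13935 genes tested (Benjamini-Hochberg, threshold 0.05), and a gene rose or fell where it passed. CPM is the count over the library total times its TMM factor, SE comes from the F value, and the SD is over 2 libraries. The script was tested on simulated data. Lists were described by counts and medians and not tested. Alternatives changed the scaling (DESeq2 size factors, or TMM without the 50 most abundant genes), the filter (none, or 10 counts in each library of 1 group), the test (DESeq2 1.42.0, Wald), the libraries (only the 4 compared, or each left out in turn), the model (a replicate block) or the members (no X-linked genes). With the main fit and without the last, these made 14 fits per comparison.

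The members and lists were chosen with earlier results of these data known. The genes named were the 3 members per complex, comparison and direction with the largest change past the test, the catalytic core subunits, paired isoforms, members under the filter and X-linked members, and the gene of each pathway list with the largest change in each direction. Some genes that this rule names are not reported here. Slc25a5, Cycs, Esrra, Nrf1, Tfam, Atp5l, Atp5s, Atp5sl, Ndufa7, Uqcrb, the members named as exceptions or in small counts, and the 6 promoters were chosen after their values were seen. Coordinates came from RefSeq (mm10, all 86 members matched), and lengths and shared 50-base stretches from GENCODE.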

Additional observations from a re-analysis of the deposited data

How the results depend on the processing

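No member named changed direction past the test under any alternative. The members' median in EYFP against EGFP cells moved from -0.55 to -0.48 with DESeq2 size factors and in the DESeq2 Wald test, where the median of all genes moved from 0.01 to 0.08. In EYFP against EGFP cells, edgeR with DESeq2 size factors called 41 members lower, against 49 in the main fit. Among the members that lost the call there were Ndufb10 (adjusted p = 0.053), Atp5d (0.058), Atp5g2 (0.059) and Cox7a2 (0.059). In EYFP cells against wild type DESeq2 scaling moved the median of all genes from -0.12 to -0.01, a shift of 0.11. The members' median there was -1.29 with only the 4 libraries compared, and DESeq2's Wald test called 1 member higher, Cox7a2l. Without 1 library in turn, members lower numbered 8 to 55 in EYFP against EGFP cells (higher 0 to 1, median -0.59 to -0.45), 59 to 75 in EGFP cells against wild type (median -1.04 to -0.83) and 75 to 77 in EYFP cells against wild type (median -1.54 to -1.29). The lone library of a group was then taken to have the spread of the other groups. With the replicate number as a block the counts were 52 lower and 1 higher, 75 lower, and 77 lower. Same-numbered libraries correlated at 0.1, 0.01 and 0.02 in their deviations from the group means, so no strong shared shift was seen. With 2 libraries per group this check cannot exclude that same-numbered libraries were handled together. Counts of 1 member or near 1 CPM are limited by depth.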
